A study of Hordeum vulgare with 12 samples.

Results

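Around the centromeres of barley chromosomes 1H to 7H, 7552 VRS5 binding peaks were found, 7.59% of the 99518 peaks on these chromosomes. The whole list holds 99567 peaks. A peak was counted here when its summit, the base with the highest signal, lay within 25 Mb of a centromere position in the MorexV3 genome. These positions were 206.5 Mb on 1H, 301.3 Mb on 2H, 267.9 Mb on 3H, 276.1 Mb on 4H, 204.9 Mb on 5H, 256.3 Mb on 6H and 328.8 Mb on 7H. The 7 windows of 50 Mb took up 350 Mb, and the rest of the chromosomes 3846 Mb with 91966 peaks. The positions were taken as given, to 0.1 Mb, and were not checked against centromeric DNA. The windows were gene-poor, with 1.53 protein-coding genes per Mb against 7.82 in the rest and 21.2 in the 25 Mb at each chromosome end.

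VRS5 is the barley ortholog of the maize protein TEOSINTE BRANCHED 1, a transcription factor of the TCP family that holds back the outgrowth of tillers and of lateral spikelets. A barley centromere lies inside a long region with few genes, rare meiotic crossovers and many retrotransposons, of which some families are concentrated at the centromere itself. In the living cell much of this DNA is packed as heterochromatin, which limits the access of transcription factors. Reads from repeats that occur in many near-identical copies cannot be placed to a single copy.

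Binding was measured by DNA affinity purification and sequencing (DAP-seq), in which naked genomic fragments are offered to a tagged protein synthesised in vitro, so that the packing of the DNA does not enter. The bait was the VRS5 protein of cv. Bowman with a C-terminal 3xFLAG tag, in 6 libraries, and GFP-FLAG, not known to bind DNA, was the control in the other 6. All 12 libraries were made with DNA of cv. Morex, from 100 mg of developing inflorescences per replicate, 4 weeks after sowing and at about Waddington stage 4. The libraries of each bait were pooled before peaks were called, so that no value has a replicate error and no test between libraries was possible. The 95% intervals below therefore stand for counting error alone and hold only if peaks are independent. Counts in bins of 1 Mb varied more than Poisson counts would, with a variance of 2.47 times the mean in the windows and 2.07 times in the rest. The Poisson intervals are thus likely too narrow, and one that only just excludes 1 may not hold.

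VRS5 peaks were slightly sparser around the centromeres than elsewhere. The windows held 21.6 peaks per Mb (Poisson interval 21.1 to 22.1) and the rest 23.9 (23.8 to 24.1), a ratio of 0.902 (0.881 to 0.924). On each of the 7 chromosomes the ratio was below 1. It was lowest on 4H, at 0.827 (0.775 to 0.881), followed by 3H at 0.876 (0.821 to 0.933). On 6H it was 0.909, on 7H 0.911, on 1H 0.922 and on 2H 0.927, each with an interval below 1. The upper ends of these intervals were close to 1, at 0.981 on 1H and 0.986 on 2H. On 5H it was 0.947, and the interval of 0.890 to 1.01 included 1. The rest holds sparse sequence of its own, since the 25 Mb at each chromosome end had 13.9 peaks per Mb (13.5 to 14.3). Against the rest within 100 Mb of the centromere, the ratio for the windows was 0.834.

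The 7 windows differed little from each other. They held 1031 peaks (4H) to 1137 peaks (5H), with a mean of 1079 ± 37.8 (SD over the 7 windows). The density ran from 20.6 per Mb on 4H through 20.8 on 3H, 21.2 on 7H, 21.8 on 6H, 21.9 on 2H and 22.0 on 1H to 22.7 on 5H. Of the 21 pairs of windows, 2 had a ratio whose interval excluded 1. The highest density was 1.10 times the lowest (1.01 to 1.20).

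**Figure D1:**
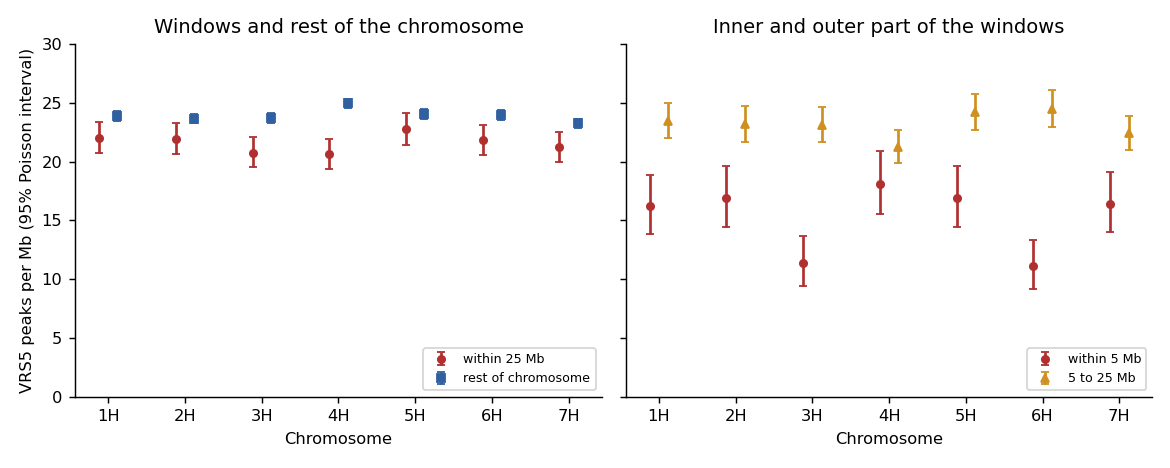
VRS5 peaks per Mb on each chromosome, with 95% Poisson intervals as bars, for the window and the rest of the chromosome (left) and for the inner 5 Mb and the outer 5 to 25 Mb of each window (right). The windows lie at 20.6 to 22.7 per Mb, each below the rest of its chromosome, and the inner parts of 3H and 6H are the lowest at 11.4 and 11.1.

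The density was lowest near the centromere itself. Within 1 Mb of it, 134 peaks gave 9.57 per Mb (8.02 to 11.3), and the density was 14.4 per Mb (12.4 to 16.5) from 1 to 2 Mb and 17.5 (16.3 to 18.8) from 2 to 5 Mb. From 5 to 10 Mb it was 22.2 per Mb and from 10 to 15 Mb 22.3. From 15 to 20 Mb and from 20 to 25 Mb it was 24.1 and 24.0, and just outside the edge of the windows, from 25 to 30 Mb, it was 25.3. The density was highest further out, at 26.2 per Mb from 50 to 100 Mb and again from 100 to 150 Mb. It then fell to 22.0 per Mb from 200 to 300 Mb and 15.1 beyond 300 Mb. Peaks were thus sparse at both the centromeres and the gene-rich chromosome ends, and densest along the arms between them.

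**Figure D2:**
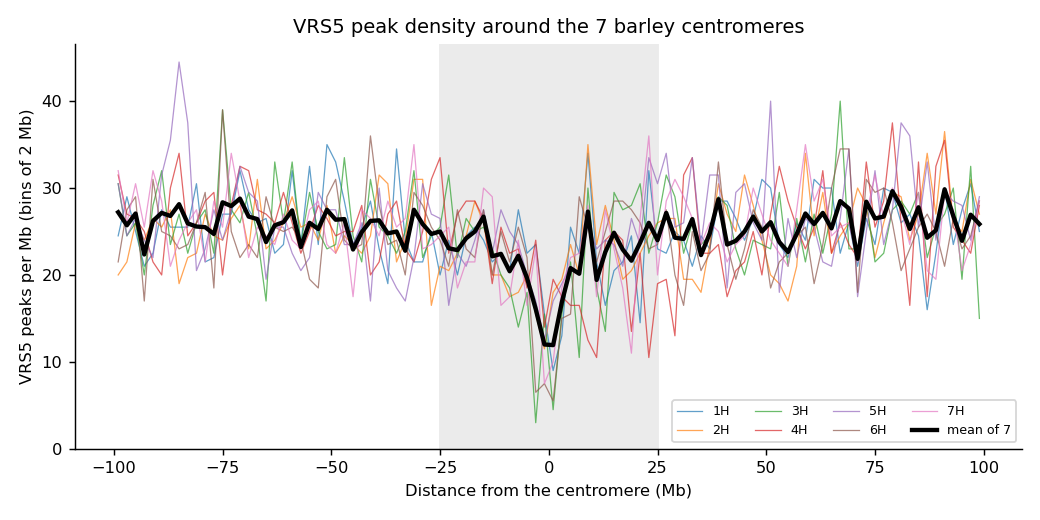
VRS5 peaks per Mb in bins of 2 Mb against the distance from the centromere, for each chromosome (thin lines) and as their mean (thick line), with the windows shaded in grey. The mean has its minimum at the centromere, where the inner 1 Mb holds 9.57 peaks per Mb, and rises toward the level of the arms across the windows.

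Split at 5 Mb, the inner part of the windows held 1070 peaks at 15.3 per Mb (14.4 to 16.2), 0.639 times the density of the rest (0.601 to 0.679). The outer part held 6482 peaks at 23.2 per Mb (22.6 to 23.7), a ratio of 0.968 (0.944 to 0.993). The rest includes the sparse chromosome ends. The outer part was also below the nearby arms, with 25.2 per Mb (24.7 to 25.7) from 25 to 50 Mb. The inner part was below the rest on all 7 chromosomes. It was lowest on 6H, with 11.1 per Mb (9.13 to 13.4), and on 3H, with 11.4 (9.40 to 13.7), which did not differ beyond these intervals. The other 5 chromosomes had 16.2 to 18.1 per Mb, and their intervals lay above those of 3H and 6H. In the outer part the ratio to the rest was 0.963 to 1.02 on 6 chromosomes, with intervals that included 1. Chromosome 4H was the exception, with a ratio of 0.852 (0.794 to 0.913) in its outer part and the highest density, 18.1 per Mb, in its inner part.

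The low density on 4H was on 1 side of the centromere. Toward higher coordinates the 4H window had 438 peaks at 17.5 per Mb (15.9 to 19.2), and toward lower coordinates 593 peaks at 23.7 (21.8 to 25.7). On the other 6 chromosomes the intervals of the sides overlapped, which does not show that the sides were equal. No interval of their ratio was computed. The greatest of these differences was on 2H, with 20.4 per Mb (18.7 to 22.3) toward lower and 23.4 (21.5 to 25.4) toward higher coordinates.

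In bins of 1 Mb, 25 of the 350 bins of the windows (7.14%) held fewer than 10 peaks, against 2.71% of 3840 bins in the rest. Of these 25 bins, 18 lay within 5 Mb of a centromere, 7 of them on 6H and 4 on 3H. On 1H, 2H, 6H and 7H the bin from 0 to 1 Mb was the lowest or level with the lowest, with 6, 7, 4 and 5 peaks. On 5H the lowest count was 11, in 2 bins, and on 4H it was 7, from 10 to 11 Mb. The fullest bin, with 42 peaks, lay on 1H from 9 to 10 Mb. Over the 7 windows together, counts varied more from bin to bin than in the rest, with a variance 2.47 times the mean against 2.07. The SDs were closer, at 7.29 and 7.04. By window the variance ran from 1.55 times the mean on 5H to 3.48 times on 3H. On 5H and 2H (1.83) it was below that of the rest.

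**Figure D3:**
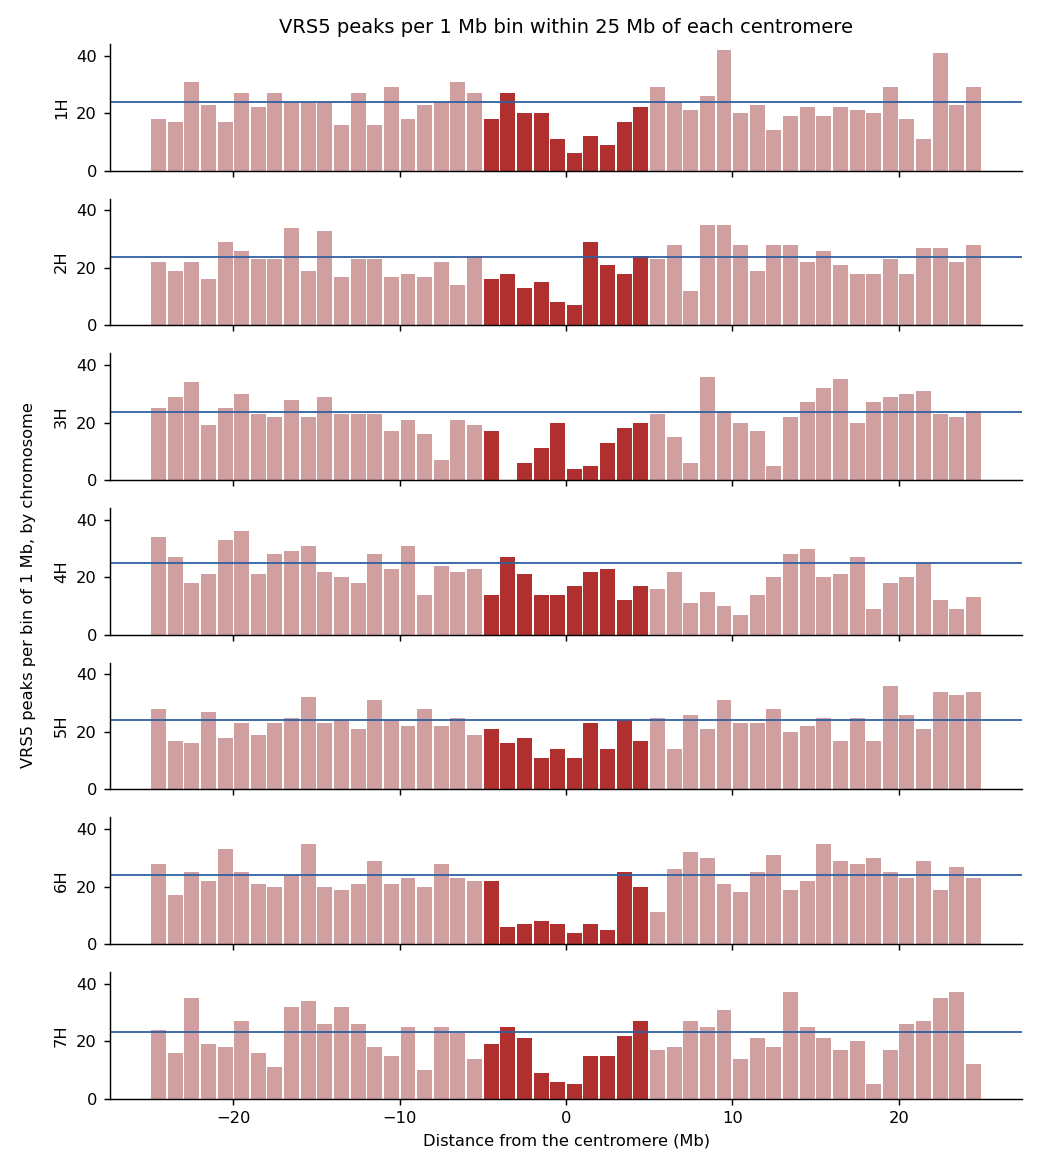
Number of VRS5 peaks in each 1 Mb bin of the 7 windows, against the distance from the centromere (dark bars, within 5 Mb; light bars, 5 to 25 Mb), with the mean of the rest of the chromosome as a line. The counts run from 0 on 3H, between -4 and -3 Mb, to 42 on 1H, and the low bins of 6H form 1 block around the centromere.

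On 3H the bin from -4 to -3 Mb held 0 peaks, inside a stretch of 1349 kb without a peak, the third longest on the chromosomes. It ran from 263683840 to 265032953 and contained 0 protein-coding genes and 3 pseudogenes. Greenscreen regions, stretches with many GFP-FLAG reads from which the authors removed peaks, covered 4.62% of it. The longest such stretch on 6H was 787 kb, from 258388640 to 259175878, with 6 protein-coding genes and 14 pseudogenes. On 7H, 5H, 4H, 2H and 1H the longest were 604, 559, 425, 417 and 408 kb. All but that of 2H, at -11.7 Mb, lay within 5 Mb of the centromere. Of 7545 gaps between neighbouring summits in the windows, 60 were over 300 kb (0.795%, Wilson interval 0.618 to 1.02), against 0.356% (0.319 to 0.396) in the rest. Of the 60, 31 lay within 5 Mb of a centromere. Most gaps were short, with a median of 26.9 kb against 24.9 kb in the rest.

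Closely spaced peaks were about as frequent in the windows as in the rest. The most peaks within 100 kb were 13, on 1H from 203118703 to 203218168, against 29 on 4H in the rest. The rest is much longer, so that these 2 maxima are not on a like footing. Neighbouring summits under 1 kb apart made up 1.59% of gaps in the windows and 1.52% in the rest. Summits with a partner 10 kb away, within 0.3 kb, made up 5.79% of the peaks in the windows (5.28 to 6.34) and 6.36% in the rest (6.20 to 6.52).

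The peaks of the windows had a higher control signal beneath them. The GFP-FLAG background at the summit, derived for each peak from its pileup and fold enrichment, had a median of 12.1 in the windows (quartiles 9.94 and 14.8) and 10.9 in the rest (9.25 and 13.5). The pileup, the number of VRS5-FLAG fragments stacked at the summit, had a median of 56 against 53. Fold enrichment, the ratio of pileup to background with 1 added to each, had a median of 4.26 (quartiles 3.74 and 5.10) against 4.39 (3.86 and 5.22). Background and pileup were higher and fold enrichment was lower on each of the 7 chromosomes. The median fold enrichment differed by -0.22 on 1H and by -0.07 on 4H, the ends of the range.

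At like background the fold enrichment differed little. All peaks were split by background into 5 classes of about equal size. Within these classes the median fold enrichment of the windows minus that of the rest was between -0.016 and 0.037. All peaks had passed the same q threshold, so that a given background also sets a minimum fold enrichment in both groups. The small differences are therefore in part fixed by this filter. The windows had 29.0% of their peaks in the class of highest background, against 19.3% in the rest, and 13.1% against 20.6% in the lowest. The median background was 12.4 within 1 Mb of the centromere, 11.95 from 1 to 2 Mb, 12.5 from 2 to 5 Mb and 11.95 from 20 to 25 Mb. It was 11.9 from 25 to 50 Mb and 11.1 from 50 to 100 Mb. From 5 to 10 Mb the median was 12.2, from 10 to 15 Mb 12.3 and from 15 to 20 Mb 11.95. Split at 5 Mb, it was 12.5 (11.95 to 12.6) in the inner and 12.1 (11.95 to 12.3) in the outer part of the windows. Background was thus higher in each band of the windows than from 50 to 100 Mb. Its part in the density was not tested.

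**Figure D4:**
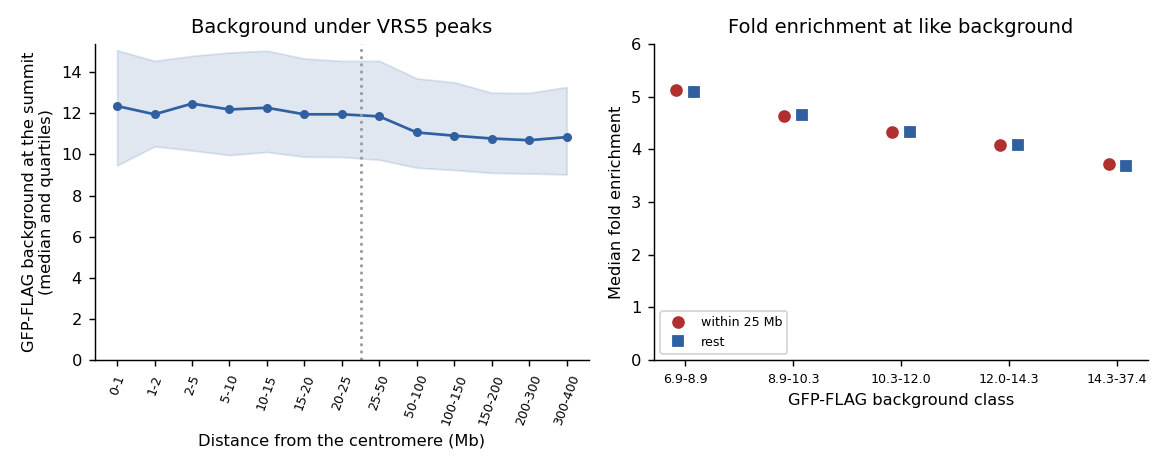
Left, GFP-FLAG background at the summits of VRS5 peaks by distance from the centromere, as the median (points) and the quartiles (band), with the edge of the windows dotted. Right, median fold enrichment of the peaks in the windows and the rest in 5 classes of background. The symbols differ by at most 0.037, where the shared q threshold also sets a minimum fold enrichment.

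Peaks of the windows were also wider, with a median of 291 bp against 272 bp, and 12.3% of them were at least 500 bp wide, against 7.92%. The significance was close, with a median -log10 q of 16.0 against 15.9. Fold enrichment above 10 was found for 33 peaks of the windows, or 0.437% (0.311 to 0.613), against 0.452% of all peaks on the chromosomes. The frequency of strongly enriched peaks did not differ beyond counting error.

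Among the most significant peaks the order of the densities turned. Of the 1723 peaks with q below 1e-50, 1.73% of all, 178 lay in the windows, which was 2.36% of their peaks (2.04 to 2.72) against 1.68% (1.60 to 1.77) in the rest. Per Mb this was 0.509 against 0.402, a ratio of 1.27 (1.08 to 1.48). The ratio was above 1 on 6 chromosomes and 0.846 on 4H. It was highest on 1H, at 2.07 (1.39 to 2.996), where 35 such peaks lay in the window, and without 1H it was 1.16 (0.971 to 1.38), an interval that included 1. Between q of 1e-20 and 1e-50 the ratio was 0.894, and for weaker peaks 0.897. The 178 peaks had a median pileup of 109.5 and background of 12.4, against 102 and 10.4 for those of the rest. Their median fold enrichment was lower, at 8.43 against 9.05. The part of the pileup and the background in this order was not tested.

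The strongest peaks of the windows ranked among the strongest of the genome. By fold enrichment, 4 of the first 6 peaks on chromosomes 1H to 7H lay here, on 3H, 1H, 5H and 2H. The cutoff of 6 is the rank of the last of these 4 peaks, and the next peak of the windows ranked 15. The windows held 7.59% of all peaks. Above 10-fold they showed no excess, with 0.437% of their peaks against 0.452% of all peaks, so that the count of 4 does not show an enrichment of strong sites. The 3H peak, from 279745354 to 279745884 and 11.8 Mb from the centromere, was enriched 14.6-fold. Its nearest protein-coding gene was LOC123439879. The 1H peak, from 212652000 to 212652450, had a fold enrichment of 14.5 and a pileup of 114. Its background of 6.91 is the lowest value in the list, shared by 91 peaks of the windows and 2071 of the rest. The caller uses such a value as a floor, so that it is not a GFP-FLAG level measured at the site. It lay 6.15 Mb from the centromere and 217 kb from LOC123428881. The 5H peak, from 204397522 to 204398106, was the one nearest to a centromere, at -0.502 Mb. It had a fold enrichment of 14.4, a pileup of 126 and a background of 7.80. Its nearest protein-coding gene, LOC123398898, was 1318 kb away. The 2H peak, from 304835798 to 304836312, had a fold enrichment of 14.4 and lay 147 kb from LOC123430033. These 4 peaks combined a high pileup with a background well below the median of 12.1.

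The strongest peaks of the other 3 windows were weaker. On 6H it lay from 251052589 to 251053105 and 757 kb from LOC123401893, and had a fold enrichment of 13.0 and the greatest -log10 q in the windows, 112. On 4H it lay from 298410345 to 298410729, only 7.70 kb from LOC123446407, and was enriched 12.1-fold. On 7H it lay from 329856543 to 329856872, at a distance of 424 kb from LOC123409997, and was enriched 11.8-fold. None of the 10 strongest peaks of the windows, enriched 12.1-fold to 14.6-fold, lay within 15 kb of a protein-coding gene. Of the 33 above 10-fold 1 did, the 4H peak. Over all peaks of the windows this share was 3.67%, so that these counts do not set the strong peaks apart. Of these 33, 6 had a background at the floor, and 5 lay within 5 Mb of a centromere, as did 14.2% of all peaks in the windows.

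The authors' peak list kept a smaller share of the calls in the windows. Peak names carry a running number that rises along the genome with gaps, read here as the numbering of all calls before peaks were removed for a q above 1e-10 or for overlap with a greenscreen region. What the number stands for is not given in the sources used here. On this reading the windows had 95.6 calls per Mb and the rest 92.8, a ratio of 1.03 (1.02 to 1.04). The ratio of calls was above 1 on 5 chromosomes and below 1 on 4H, at 0.938 (0.909 to 0.967), and on 3H, at 0.996 with an interval that included 1. The share kept was 22.6% (22.1 to 23.0) in the windows and 25.8% (25.6 to 25.9) in the rest, and was lower in the windows on all 7 chromosomes. Whether a call was lost to its q or to a greenscreen region cannot be told apart here.

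Near the centromere both numbers were low. Within 1 Mb there were 58.9 calls per Mb, of which 16.3% (13.9 to 18.9) were kept, and from 2 to 5 Mb 85.8 calls per Mb, of which 20.4% were kept. From 20 to 25 Mb there were 102 calls per Mb, above the mean of the rest, with 23.4% kept. In the inner part of 3H and 6H calls were fewest, at 64.9 and 62.8 per Mb, and the share kept was 17.6% and 17.7%. Relative to the rest, with 92.8 calls and 23.9 peaks per Mb, both the calls and the share kept were thus lower at the centres. Their parts in the low peak density were not tested. How many reads of each library could be placed there was not analysed.

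**Figure D5:**
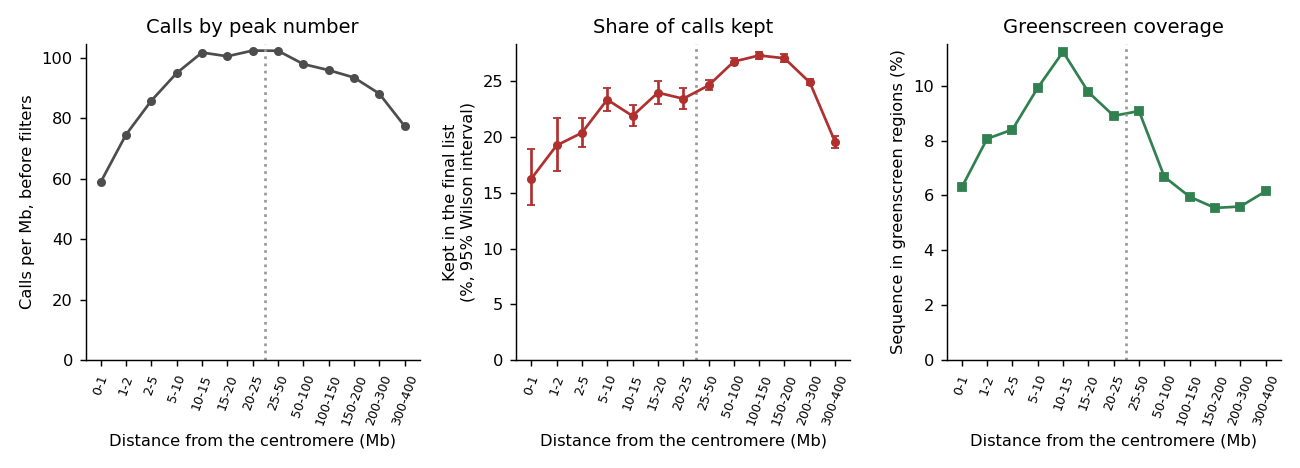
Calls per Mb as read from the numbers in the peak names (left), the share of calls kept in the final list with 95% Wilson intervals (middle) and the share of sequence in greenscreen regions (right), by distance from the centromere, with the edge of the windows dotted. Calls and kept share are lowest at the centromere, at 58.9 per Mb and 16.3%, where greenscreen coverage is 6.29%, below the 11.2% at 10 to 15 Mb.

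Greenscreen regions were more frequent in the windows. There were 2251 of them, or 6.43 per Mb against 4.84 in the rest, with a median length of 12.1 kb against 10.4 kb. They covered 9.55% of the windows and 6.21% of the rest, and more of the window on each of the 7 chromosomes. Within 5 Mb of the centromere they covered 7.91%, less than the 9.95% of the outer part, where peaks were denser. Relative to sequence outside greenscreen regions, the density ratio of windows to rest was 0.936 (0.914 to 0.958), below 1 on all 7 chromosomes and with an interval below 1 on 2, 3H and 4H. Their median GFP-FLAG enrichment was alike, at 4.68 in the windows and 4.69 in the rest. Enrichment above 50-fold was found for 30 regions of the windows, 1.33% of them, against 1.02% (189 regions) in the rest. No interval was computed for these shares, so that a difference is not shown. On 5H a region of 22.5 kb with 109-fold enrichment, from 204859065 to 204881538, lay at -0.0297 Mb from the stated centromere position. The strongest of the windows reached 186-fold, on 7H, in a region of 0.842 kb that lay 20.1 Mb from the centromere. In the rest the strongest reached 716-fold. Peaks with a summit within 1 kb of a greenscreen region were 2.50% in the windows and 1.60% in the rest. The regions themselves were more frequent in the windows. The share of sequence this close to one is not given here, so that these values do not set the peaks apart.

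Few peaks of the windows lay near genes, and few genes were there. Of the 7552 summits, 277 lay within 15 kb of a protein-coding gene, a share of 3.67% (3.27 to 4.12) against 12.5% (12.3 to 12.7) in the rest. Sequence within this distance of a gene made up 6.02% of the windows and 19.5% of the rest, so that in both the share of peaks was below the share of sequence. The median distance from a summit to the nearest protein-coding gene was 237 kb in the windows and 74.4 kb in the rest. The share of protein-coding genes with a summit within 15 kb did not differ beyond counting error between the windows and the rest. The sequence searched per gene was not alike, since genes of the windows were longer, with a median of 4.38 kb against 2.85 kb. A summit near several genes also counted for each of them. The shares therefore do not show that binding near genes was equal. A summit lay within 15 kb of 199 of the 536 protein-coding genes (37.1%, 33.1 to 41.3), against 36.2% (35.7 to 36.7) of 30091 in the rest. For long noncoding RNA genes the shares were 39.8% (33.3 to 46.7) and 37.6%. For pseudogenes the share was lower in the windows, at 28.6% (24.3 to 33.5) against 38.7% (37.4 to 40.1).

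The lower density of the windows was present at each distance from genes outside gene bodies. The ratio of windows to rest was 0.877 (0.763 to 1.004) up to 15 kb from a gene, 0.860 from 15 to 50 kb, 0.825 from 50 to 100 kb, 0.824 from 100 to 200 kb and 0.842 beyond 200 kb. Sequence beyond 200 kb from a gene made up 54.8% of the windows and held 4273 of their peaks.

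Over gene bodies of all lengths together the order was the reverse, but not in genes over 20 kb. There were 62 summits inside 48 protein-coding genes of the windows, or 8.92 per Mb of gene body (6.84 to 11.4), against 5.58 (5.18 to 6.00) in the rest, a ratio of 1.60 (1.21 to 2.07). Genes were longer in the windows, where 22.8% of them exceeded 20 kb against 2.18% in the rest. Above 20 kb the density was 8.75 per Mb in the windows (6.36 to 11.7) and 12.6 (11.2 to 14.2) in the rest, from 5 to 20 kb 11.3 (6.32 to 18.6) and 5.76 (5.13 to 6.44), and below 5 kb 4.64 (0.957 to 13.6, from 3 summits) and 2.53. Of the 62 summits, 44 lay in genes over 20 kb, and in this class the windows were below the rest on these values. The 2 intervals overlapped slightly, which does not show that the densities were equal. No interval of the ratio was computed for this class. The part of gene length in the overall ratio was not tested. Exons and introns were not used here.

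Of the genes in the windows, 59 had a summit inside or within 1 kb. The annotation used gives these genes by identifier without a description, so that their roles are not stated. The 10 with the highest fold enrichment at such a summit ranged from 5.21 to 6.53, and in 7 of them the summit lay inside the gene. These values were not exceptional, since 8.27% to 25.1% of all peaks had a higher one. The 72 peaks of the windows inside or within 1 kb of a gene had a median fold enrichment of 4.05 and background of 14.0. For all peaks of the windows these medians were 4.26 and 12.1. LOC123408806, on 1H from 207628197 to 207673974 and 1.15 Mb from the centromere, had the highest value. Its peak, from 207654999 to 207655200 inside the gene, had a pileup of 87 over a background of 12.5, a fold enrichment of 6.53. On 2H, LOC123426111 had a peak 0.798 kb outside the gene with a fold enrichment of 6.30. On 5H the peaks inside LOC123396111, from 210518317 to 210549800, and LOC123395533, from 206981231 to 207059425, had fold enrichments of 5.97 and 5.84. LOC123404741 on 6H, from 261416842 to 261500708, had 2 summits inside or within 1 kb, the stronger with a fold enrichment of 5.81. For LOC123448517 on 4H the value was 5.42, and for LOC123426184, LOC123426167 and LOC123426141 on 2H it was 5.39, 5.31 and 5.21.

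LOC123398318, on 5H from 199012808 to 199081339, had 3 summits inside or within 1 kb, the strongest with a fold enrichment of 5.26 and a pileup of 119 over a background of 21.8. With 4 summits within 15 kb it was 1 of 5 genes with this number, the most in the windows, against up to 10 in the rest. The others were LOC123443649 on 3H, LOC123426097 on 2H, and LOC123404202 and LOC123406157 on 6H, all chosen after their values were seen. For the 277 peaks of the windows with a protein-coding gene at most 15 kb away, the median fold enrichment was 4.27 (quartiles 3.75 and 4.99), close to the 4.26 (3.73 and 5.10) of the 7275 further away. Of the genes named in the paper, only SOC1-like (LOC123437294), which encodes a MADS-box transcription factor, was matched to the annotation used here. It lay outside the windows, 156 Mb from the centromere of 1H. Other targets named there, such as HvCEN and VRS1, were not matched, so that their place relative to the windows is not given.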

How the data were processed

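DAP-seq reads of 6 VRS5-FLAG and 6 GFP-FLAG libraries were trimmed by the authors, mapped with BWA-MEM to MorexV3 and pooled by bait. The submitters' notes name MACS2 2.2.7.1, BWA 0.7.17, bedtools and Trimmomatic 0.39. Peaks were called by the authors with MACS2 for VRS5-FLAG against GFP-FLAG. Peaks on greenscreen regions were then removed, and those with q below 1e-10 kept. For each peak the authors deposited a pileup signal, a fold enrichment ratio with 1 added to each term, and the p-value and q-value as -log10 values. For greenscreen regions the authors deposited a score made from the -log10 q and a fold enrichment ratio whose background is not given in the sources used here. Depth per library was not analysed here, and no value per library is held in the lists.

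Densities were compared over chromosome lengths taken as the highest listed or annotated coordinate, with 95% Poisson intervals, exact conditional Poisson intervals for ratios and Wilson intervals for shares. The 49 peaks on unassigned sequence were left out. Distances were measured to RefSeq gene spans of MorexV3, given without strand or exons. Calls per Mb were interpolated from the numbers in the peak names. Named genes were those nearest to the strongest peak of each window and the 10 with the highest fold enrichment at a summit inside or within 1 kb. SOC1-like was added as the only gene named in the paper that was matched to the annotation. A count over gene families was planned but not made, since the annotation table used here holds no gene descriptions.

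The windows and lists were chosen with earlier results of these data known. The distance bands, the split at 5 Mb, the bins, gaps, classes and call numbers were chosen after seeing the data. Alternatives varied the window width, q threshold, reference sequence, summit position, merging and gene distance. The density ratio was tested on simulated peaks, placed uniformly and independently and thinned inside the windows, and 3 of 3 planted ratios were recovered within their intervals. Such peaks meet the assumption of the intervals. The test therefore checks the computation, not whether the intervals hold for the real peaks. The work was done in Python 3.11.15 with scipy 1.17.1, pandas 2.3.3, matplotlib 3.10.9 and numpy 2.4.6. Genome sequence, motifs and repeats were not used here.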

Additional observations from a re-analysis of the deposited data

How the results depend on the processing

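The density ratio of windows to rest (0.902) was 0.784 with 10 Mb, 0.833 with 15 Mb and 0.984 (0.967 to 1.0004, which includes 1) with 50 Mb on each side. It was 0.834 against the rest within 100 Mb of the centromere, 0.936 over length outside greenscreen regions and 0.851 over sequence more than 15 kb from genes. Settings chosen after seeing the data gave 0.968 without the inner 5 Mb, 0.866 against the rest without the chromosome ends, and 0.895 to 0.916 with 1 chromosome left out. With q below 1e-50 it turned to 1.27, and by chromosome to 2.07 on 1H, 1.22 on 2H, 1.20 on 3H, 1.21 on 5H, 1.26 on 6H and 1.29 on 7H, where only the interval of 1H excluded 1. With 50 Mb on each side it was 1.02 on 5H and 1.02 on 7H, with intervals that included 1. Of 49 alternatives by chromosome, 22 moved the ratio within its interval, 19 further and 8 past 1. The difference in median fold enrichment (-0.14) was -0.62 with q below 1e-50 and 0.021 (-0.036 to 0.078, which includes 0) for peaks with a background of 10 to 12, a setting chosen after seeing the data. The difference in the share of peaks within 15 kb of a protein-coding gene (-8.82 percentage points) became -7.27 at q below 1e-20, -6.45 at q below 1e-50, -2.97 for 5 kb and -25.1 for 50 kb. The cause of these shifts was not tested. No paired analysis was possible because the libraries of each bait were pooled before peaks were called, and for the same reason no replicate could be left out. The intervals cover counting error only, and peaks that lie close together are not independent.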
